A study of Mus musculus with 2 samples.

Results

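Expression of 9 genes of retinoid storage and metabolism (Lrat, Rbp4, Bco1, Cyp26b1, Aldh1a1, Aldh1a2, Stra6, Dhrs3 and Rarb) was measured in single mouse liver cells from a healthy and a CCl4-injured library. The genes were taken by name, matched by Ensembl identifier in both count matrices, and were all found among the 30406 genes listed in both. They were described by cell class, and against the level of Acta2 (smooth muscle actin, the usual mark of activated stellate cells) in cells of the CCl4 library that held at least 3 UMIs of Reln, Colec11 and Rgs5 together. These cells are called gated cells below. UMIs are counts of captured RNA molecules.

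Both libraries came from livers of Col1a2CreER:Rosa26tdTomato mice on a C57BL/6 background, young adults of both sexes per the methods of the study, in which tamoxifen can switch on a red label in cells that use a Col1a2 transgene. The CCl4 animals received repeated intraperitoneal injections of carbon tetrachloride, a toxin that hepatocytes break down, in corn oil, and the other animals were uninjured. After perfusion and digestion with pronase and collagenase, cells were purified on a Nycodenz gradient, and the methods add a depletion of CD45-positive cells that the labels do not name. The tdTomato transcript is not on the gene lists used here, and the number of animals per library is not given in the sources used here.

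With 1 library for each condition there was no replicate, and so neither a test nor a p-value is given. Square brackets hold 95% intervals, which cover counting error only. The matrices were written by different software versions (Cell Ranger 3.1.0 for the healthy and 6.0.1 for the CCl4 library), so software, library and injury cannot be told apart. The cells kept after filtering numbered 5602 (healthy, median 6798.5 UMIs) and 7314 (CCl4, median 11916 UMIs), and 10 barcodes occurred in both libraries. Of 22 clusters, 14 could be named from marker genes. Although the labels speak of whole liver cells, few cells were hepatocyte-like, 130 in the healthy (2.32% [1.94, 2.75]) and 8 in the CCl4 library (0.109% [0.0472, 0.215]). Mesenchymal-like cells, the class that holds stellate cells, numbered 10 among healthy and 2891 among CCl4 cells. A comparison of CCl4 with healthy was therefore made only in endothelial-like and mesothelial-like cells, which had at least 50 cells in each library.

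As background, vitamin A reaches the liver as retinol and retinyl ester, and hepatic stellate cells store most of it as ester in lipid droplets. Lrat (lecithin retinol acyltransferase) makes the ester, Rbp4 carries retinol out of hepatocytes into the blood, and Stra6 takes retinol up from Rbp4 in several tissues outside the liver. Bco1 cleaves beta-carotene to retinal, Dhrs3 reduces retinal back to retinol, Aldh1a1 and Aldh1a2 oxidise retinal to retinoic acid, Cyp26b1 breaks retinoic acid down, and Rarb is a nuclear retinoic acid receptor whose gene is itself a textbook target of retinoic acid. Loss of stored retinoid is a known feature of stellate cells that turn into myofibroblasts.

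Retinoic acid receptors bind direct repeats of a 6-base hexamer, and the 250 bases upstream of the 16 RefSeq start sites of the 9 genes (build GRCm38.p6) were searched for them. The hexamers searched were AGGTCA, which is the consensus, the variant GGTTCA, the variant AGTTCA and the variant GGGTCA, as direct repeats with a spacer of 1 (DR1), 2 (DR2) or 5 (DR5) bases, on both strands. A repeat was present at 2 of the 16 start sites, those of Rarb and Bco1. The Rarb repeat is made of the variants GGTTCA and AGTTCA, so its match rests on the choice to search these variants. Among all 32851 upstream windows of the RefSeq table, 0.164% held a DR1, 0.174% a DR2 and 0.0883% a DR5. Those of Rarb (chr14:16575477-16575726, minus strand, a DR5 from position -53 to position -37 counted from the start site) and Bco1 (chr8:117095615-117095864, plus strand, a DR1 on the opposite strand from position -56 to position -44) are shown with the repeat in capitals, beside that of Lrat (chr3:82903975-82904224, minus strand), the storage enzyme, in which none of these repeats was found. A match is a description of the letters only, and which receptor binds it, if any, was not tested.
Rarb: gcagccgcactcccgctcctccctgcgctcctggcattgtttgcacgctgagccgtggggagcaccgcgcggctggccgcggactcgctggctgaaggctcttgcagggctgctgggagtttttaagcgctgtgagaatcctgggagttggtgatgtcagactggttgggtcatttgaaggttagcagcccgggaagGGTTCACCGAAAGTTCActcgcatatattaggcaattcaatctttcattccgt
Bco1: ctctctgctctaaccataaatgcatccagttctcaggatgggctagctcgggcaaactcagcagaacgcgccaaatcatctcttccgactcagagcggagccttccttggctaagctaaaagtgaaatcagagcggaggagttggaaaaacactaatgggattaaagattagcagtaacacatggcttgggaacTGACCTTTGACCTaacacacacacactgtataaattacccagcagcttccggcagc
Lrat: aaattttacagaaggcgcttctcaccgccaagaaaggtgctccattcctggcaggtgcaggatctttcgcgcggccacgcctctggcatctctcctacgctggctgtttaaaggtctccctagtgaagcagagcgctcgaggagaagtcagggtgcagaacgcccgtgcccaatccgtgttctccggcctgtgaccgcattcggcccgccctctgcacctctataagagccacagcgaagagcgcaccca

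Among the 9 genes, Lrat and Bco1 were found in mesenchymal-like cells, of which the healthy library held only 10. Rbp4 was found in hepatocyte-like cells, Cyp26b1 in endothelial-like cells, and Aldh1a2 in mesothelial-like cells and neighbouring unnamed clusters. Aldh1a1, Dhrs3 and Rarb spanned several classes. Levels are given as CPM, the UMIs of a gene per 1000000 UMIs summed over the cells of a class. Over all kept cells, the healthy library held 136 UMIs of Lrat, 55 of Bco1, 24052 of Rbp4, 3207 of Cyp26b1, 8808 of Aldh1a1, 425 of Aldh1a2, 5 of Stra6, 15066 of Dhrs3 and 1294 of Rarb. The CCl4 library held 14538 UMIs of Lrat, 4206 of Bco1, 1871 of Rbp4, 197 of Cyp26b1, 21869 of Aldh1a1, 4000 of Aldh1a2, 77 of Stra6, 6821 of Dhrs3 and 1642 of Rarb. These totals follow the classes each library held, since fewer cells of a type and less RNA per cell cannot be told apart in a sum over a library.

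**Figure D1:**
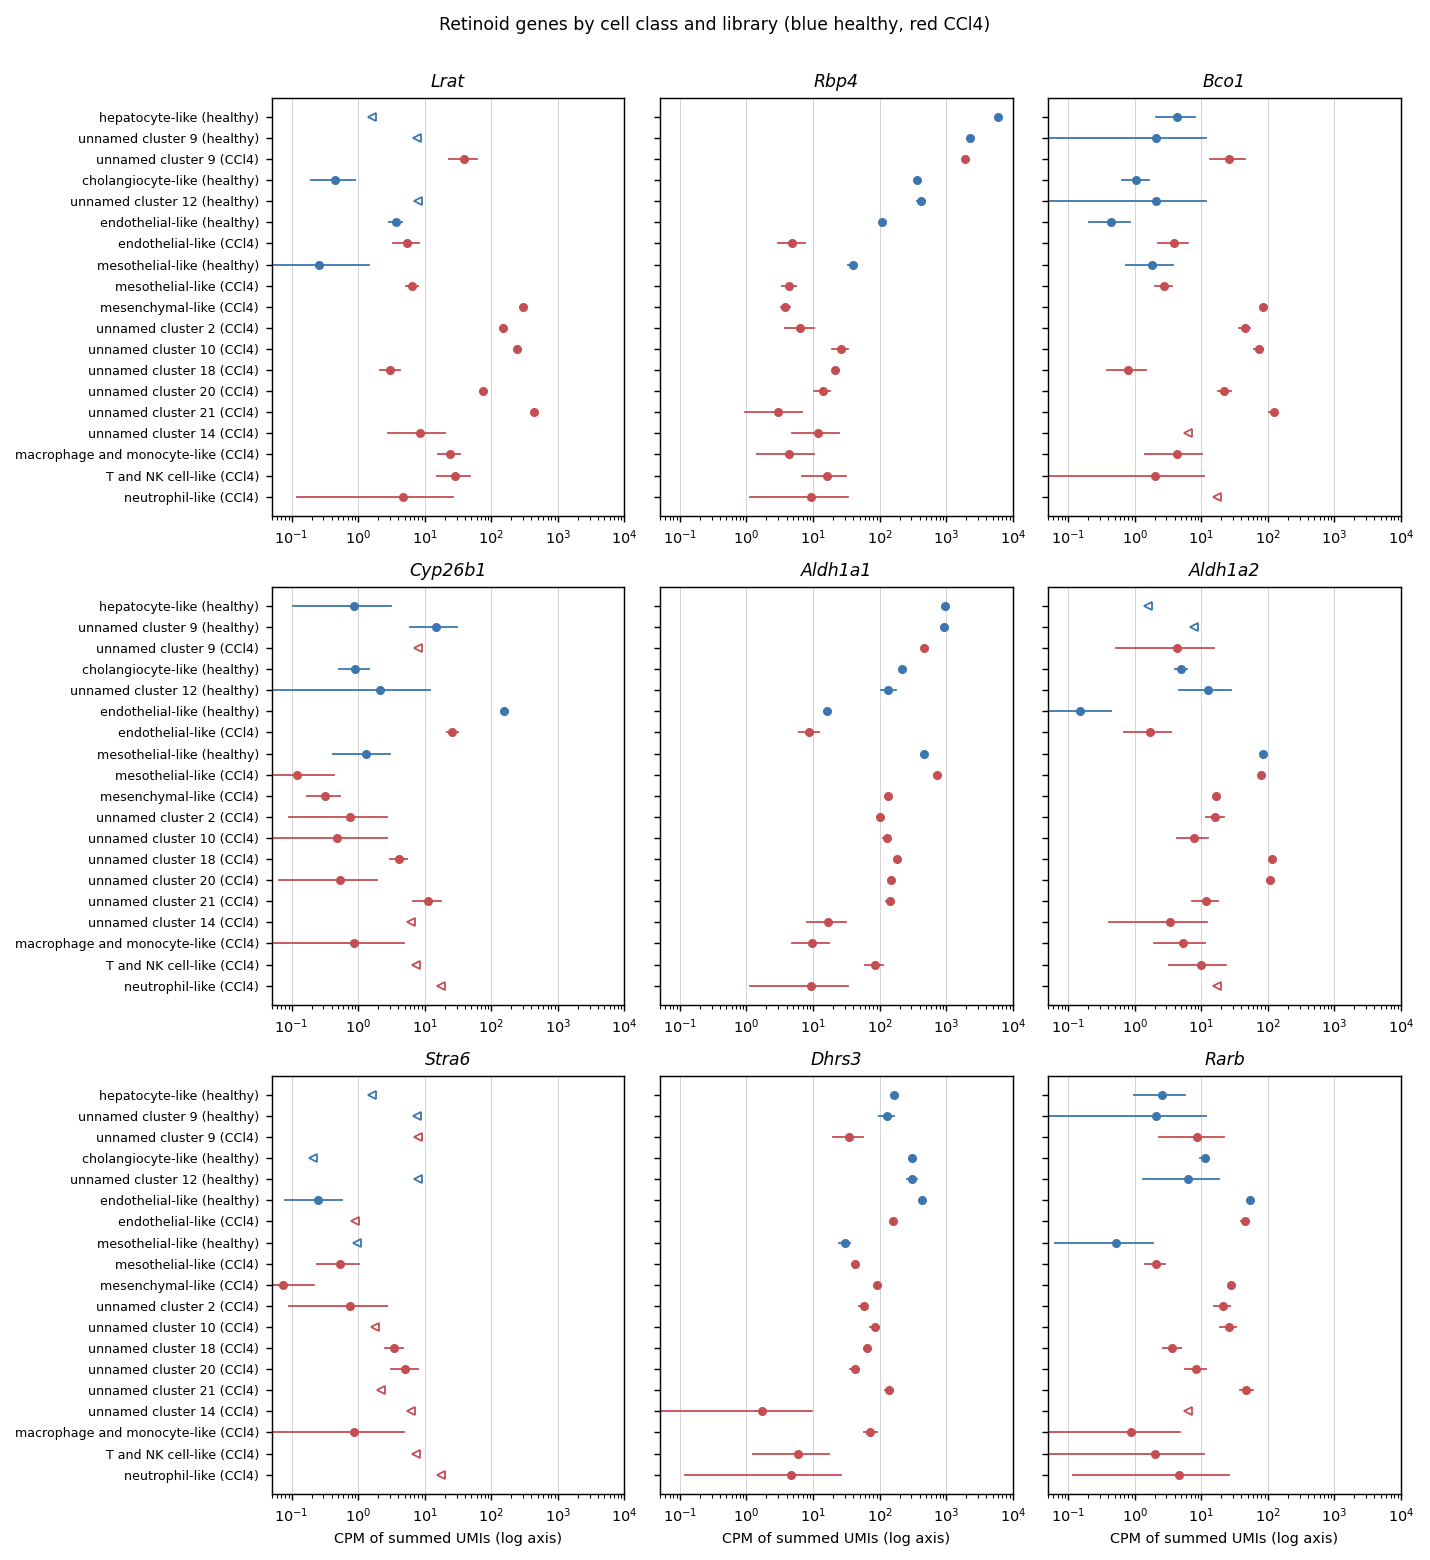
CPM of summed UMIs (log axis) of the 9 genes in 19 combinations of cell class or unnamed cluster and library with at least 20 cells, blue for healthy and red for CCl4. Points are levels, lines are 95% Poisson intervals (cut at the left edge), and open triangles mark the upper limit where no UMI was counted. Lrat and Bco1 are highest in mesenchymal-like cells and in unnamed clusters with mesenchymal markers, Rbp4 in hepatocyte-like cells, and Cyp26b1 in healthy endothelial-like cells.

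For ester storage, Lrat reached 299.6 CPM [294, 305] in the mesenchymal-like cells of the CCl4 library. The level was higher, 443 CPM [412, 476], in unnamed cluster 21, whose 79 cells carried both mesenchymal and endothelial markers at a median of 21512 UMIs. Unnamed clusters 10 and 2, which held all 15 mesenchymal markers, followed at 246 CPM [225, 268] and 150.7 CPM [136, 166]. Haemoglobin genes were among those that led these clusters. Cluster 10 had a median of 1500 UMIs in the CCl4 library, and cluster 2 also held 11 of 13 endothelial markers. Every other group with at least 20 cells lay at 76.1 CPM or lower, and from rank 6 (unnamed cluster 9 of the CCl4 library, 38.7 CPM) to rank 13 (healthy endothelial-like cells, 3.67 CPM) the intervals of neighbours overlapped. No UMI was counted in the 130 healthy hepatocyte-like cells, which allows up to 1.31 CPM. The 10 healthy mesenchymal-like cells, too few to be ranked, had 639 CPM [477, 838] from 52 UMIs. A Lrat UMI was held by 74.7% of mesenchymal-like CCl4 cells (median depth 14007 UMIs), against 3.37% of endothelial-like CCl4 cells (median depth 6473 UMIs). Thinned to 2000 UMIs per cell these shares were 37.2% and 1.24%, with 4 and 76 shallower cells left out.

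For cleavage of beta-carotene, Bco1 had the same leading groups as Lrat. It stood at 122 CPM [106, 140] in unnamed cluster 21, at 86.2 CPM [83.4, 89.1] in mesenchymal-like cells and at 73.4 CPM [62.2, 86.0] in unnamed cluster 10 of the CCl4 library, and the intervals of the latter pair overlapped. Healthy hepatocyte-like cells held 10 UMIs (4.36 CPM [2.09, 8.02]) and healthy endothelial-like cells 9 UMIs (0.446 CPM). The 10 healthy mesenchymal-like cells had 73.7 CPM [27.0, 160] from 6 UMIs.

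For transport, Rbp4 reached 5991 CPM [5891, 6092] in the 130 healthy hepatocyte-like cells and 7788 CPM [6814, 8862] in the 8 of the CCl4 library. Unnamed cluster 9, a group of cells with few UMIs and 13 of 14 hepatocyte markers, followed at 2306 CPM in the healthy and 1894 CPM in the CCl4 library. Healthy cholangiocyte-like, endothelial-like and mesothelial-like cells stood at 369.7, 107 and 39.7 CPM, while the CCl4 classes and clusters of at least 20 cells, other than cluster 9, lay between 2.93 and 25.9 CPM. In smaller CCl4 groups it stood at 366 CPM [276, 475] in 16 cholangiocyte-like cells and at 341 CPM [233, 481] in 17 cells of unnamed cluster 12. Free RNA can give UMIs in cells that do not express a gene, so Rbp4 was set against Alb (albumin), the leading hepatocyte transcript. Healthy hepatocyte-like cells held 16.7 [16.4, 17.0] Rbp4 UMIs per 100 Alb UMIs, healthy endothelial-like cells 17.1 [16.4, 17.9] and healthy mesothelial-like cells 18.02 [15.1, 21.4], so both classes stood near the hepatocyte ratio of their own library. In the CCl4 library the ratio was 27.5 [23.7, 31.9] in hepatocyte-like cells and 57.9 [53.2, 63.0] in cluster 9, against 16.7 [14.0, 19.8] in mesenchymal-like, 14.5 [8.59, 23.3] in endothelial-like and 34.6 [26.2, 45.2] in mesothelial-like cells. The intervals of endothelial-like and mesenchymal-like cells thus lay below that of the 8 hepatocyte-like cells, and the part of free RNA in these levels was not tested. Healthy cholangiocyte-like cells had a lower ratio of 6.64 [6.48, 6.81]. The ratio was far higher in unnamed cluster 18 of the CCl4 library (297 [233, 381], from 270 Rbp4 and 91 Alb UMIs), which held 8 of 10 mesothelial and 9 of 15 mesenchymal markers and was led by Serpinb2 and Enpp2, and in unnamed cluster 20 (92.9 [62.4, 138], from 52 and 56 UMIs), which was led by cell cycle genes.

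The receptor Stra6 was counted in few cells of either library. All 5 healthy UMIs came from 1 cell. Of the 77 UMIs of the CCl4 library, 43 lay in unnamed cluster 18 (33 cells) and 19 in unnamed cluster 20 (11 cells), and the 2891 mesenchymal-like cells held 3 UMIs.

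For retinoic acid synthesis, Aldh1a1 and Aldh1a2 had different patterns. Aldh1a1 was highest in healthy hepatocyte-like cells (967 CPM [927, 1008]), with an overlapping interval in unnamed cluster 9 of that library (928 CPM [843, 1018]). Mesothelial-like cells of the CCl4 library followed (732 CPM [719, 745]), and then, with overlapping intervals, cluster 9 of the CCl4 library (473 CPM [413, 540]) and healthy mesothelial-like cells (469 CPM [448, 491]). It stood at 218 CPM in healthy cholangiocyte-like and at 133 CPM in mesenchymal-like cells. In healthy endothelial-like cells it stood at 16.5 CPM and, with 2.63 [2.35, 2.93] UMIs per 100 Alb UMIs against 2.69 [2.58, 2.81] in healthy hepatocyte-like cells, in the hepatocyte ratio to Alb. The ratio was 213 in healthy mesothelial-like and 579.7 in mesenchymal-like cells. Aldh1a2 was highest in unnamed cluster 18 (118 CPM [112, 124]) and the cycling cluster 20 (108 CPM [97.4, 119]), whose intervals overlapped. Next were the mesothelial-like cells of the healthy (84.9 CPM [75.97, 94.6]) and CCl4 (79.4 CPM [75.2, 83.7]) libraries, which overlapped too, and mesenchymal-like cells stood at 16.8 CPM [15.6, 18.1].

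For clearance, Cyp26b1 was found mainly in endothelial-like cells. Healthy endothelial-like cells held 3172 of the 3207 healthy UMIs (157 CPM [152, 163], in 39.1% of cells), and endothelial-like cells of the CCl4 library held 106 of 197 (25.9 CPM [21.2, 31.4], in 7.38% of cells). Thinned to 2000 UMIs, the shares were 22.9% and 3.41%. The mesenchymal-like cells held 13 UMIs (0.315 CPM).

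Dhrs3 and Rarb were likewise highest in healthy endothelial-like cells, at 435 CPM [426, 444] and 53.4 CPM [50.3, 56.7], although for Rarb the interval overlapped that of unnamed cluster 21 of the CCl4 library (47.5 CPM [37.8, 59.1]). Both were also counted in mesenchymal-like cells of the CCl4 library, at 91.4 CPM [88.5, 94.4] and 27.8 CPM [26.2, 29.4]. Dhrs3 further reached 308 CPM in cholangiocyte-like and 167 CPM in hepatocyte-like cells of the healthy library, where Rarb stood at 11.2 CPM and at a few CPM.

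The next comparison asked how the retinoid genes vary with Acta2 among gated cells of the injured liver. The gate took 3196 cells of the CCl4 library (43.7%), of which 1504 lay in mesenchymal-like cluster 13, 994 in mesenchymal-like cluster 11, 362 in unnamed cluster 10 and 133 in unnamed cluster 2. Cluster 13 had 859 CPM of Rgs5 and cluster 11 had 19.7 CPM, and they are called Rgs5-rich and Rgs5-poor. Among the genes that led cluster 13 were Colec11 and Rgs5 of the gate. Cluster 11 was led by Dpep1, Thbs4 and Mfap4, with no gate gene among its leading genes. Whether cluster 11 holds stellate cells or other mesenchymal cells was not tested. In the healthy library the gate took 290 cells, but 235 of them were cholangiocyte-like cells that passed mostly through Rgs5 (1209 UMIs, against 119 of Reln and 1 of Colec11), so the gate does not mark stellate cells there. Just outside the gate, CCl4 cells with 2 UMIs of the gate genes had 49.5 CPM of Lrat and 5.21 CPM of Bco1, and just inside it, cells with 3 UMIs had 57.0 and 11.3 CPM. Over all gated cells, Lrat stood at 316 CPM (76.2% of cells with a UMI), Bco1 at 93.0 CPM (48.2%), Aldh1a1 at 149 CPM (71.6%), Dhrs3 at 84.2 CPM (54.9%), Rarb at 27.4 CPM (28.3%), Aldh1a2 at 20.04 CPM (14.2%), Rbp4 at 4.29 CPM (5.13%), Cyp26b1 at 0.818 CPM (0.782%) and Stra6 at 0.114 CPM (0.125%).

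Gated cells were ordered by Acta2 UMIs per 10000 and split into 4 Acta2 groups of 799 cells. No Acta2 UMI was counted in 1479 gated cells (46.3%), which fill the lowest group and most of the next one (680 of 799). Cells with equal Acta2 kept their listed order, so the split between these lower groups is mostly not one of Acta2. Within 20% of the limit of the highest group (3.80 per 10000) lay 181 cells. Lrat was lower in the upper pair of groups than in the lower pair, and lowest in the highest group, while Bco1 was not lower there. Aldh1a2 was the 1 gene with a change of at least 2-fold.

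Lrat stood at 378, 349.9, 311 and 248 CPM from the lowest to the highest group. Each level was below the one before, although the step between the lower pair is mostly not one of Acta2. The highest group had 0.656 [0.625, 0.689] times the level of the lowest (log2 ratio -0.61). Against all gated cells without an Acta2 UMI the log2 ratio was -0.59 [-0.65, -0.53]. The share of cells with a Lrat UMI was 74.3% in the lowest and 76.3% in the highest group, whose median depths were 12183 and 15445 UMIs, and 65.4% and 55.7% when cells were thinned to 5000 UMIs. Most gated cells of the highest group thus held a Lrat UMI. In its cells of the Rgs5-poor cluster the share was 57.3%, or 30.4% after thinning. The gate picks cells by other stellate genes, and CCl4 cells without a UMI of them had 7.60 CPM of Lrat. The shares therefore say nothing of cells with Acta2 outside the gate.

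Bco1 stood at 82.9, 90.9, 99.9 and 95.6 CPM over the same groups, a ratio of 1.15 [1.05, 1.26]. Aldh1a1 was near level after the lowest group, at 136, 154, 152 and 150.01 CPM (ratio 1.10 [1.03, 1.19]). Its change thus lay between the lower pair of groups, whose split is mostly not one of Acta2. With mesenchymal-like clusters in place of the gate, the log2 ratios of Bco1 (0.09 [-0.05, 0.23]) and Aldh1a1 (0.08 [-0.03, 0.19]) had intervals that include 0. Aldh1a2 stood at 11.9 and 12.6 CPM in the lower pair of groups and at 26.2 and 26.2 CPM in the upper pair, a ratio of 2.20 [1.77, 2.76]. Its UMIs came from 8.51% of cells in the lowest and 19.3% in the highest group, or 4.67% and 9.53% after thinning.

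Dhrs3 stood at 93.8, 85.2, 80.7 and 79.9 CPM (ratio 0.851 [0.776, 0.933]) and Rarb at 29.6, 30.2, 27.4 and 23.6 CPM (ratio 0.797 [0.674, 0.943]). With edgeR's TMM scaling, which moves every log2 ratio of this comparison up by 0.11, the log2 ratios of Dhrs3 (-0.12 [-0.26, 0.01]) and Rarb (-0.22 [-0.46, 0.02]) had intervals that include 0. Rbp4 stood at 4.16 and 4.28 CPM in the lowest and highest group (ratio 1.03 [0.667, 1.603]), but with a gate of 2 UMIs its log2 ratio was -0.95 [-1.47, -0.45]. Cyp26b1 (14 and 4 UMIs) and Stra6 (2 and 2 UMIs) had fewer than 20 UMIs in both groups together and were not counted.

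Of the 7 retinoid genes with at least 20 UMIs, 3 were lower (Lrat, Dhrs3 and Rarb) and 3 higher (Bco1, Aldh1a1 and Aldh1a2) with an interval that leaves out 1, none was 2-fold lower and 1 was 2-fold higher. Intervals also lay apart between the lower pair of groups, whose split is mostly not one of Acta2, for Lrat ([366, 391] and [339, 361] CPM) and Aldh1a1 ([128, 144] and [147, 162] CPM). Such an interval alone therefore does not tie a small change, like that of Aldh1a1 or Bco1, to Acta2. Over all 12577 genes counted in this comparison, 26.2% were lower and 14.7% higher, and 2.76% were at least 2-fold lower and 1.77% at least 2-fold higher. The median log2 ratio was 0.04 over the 7 genes and -0.10 over all genes.

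**Figure D2:**
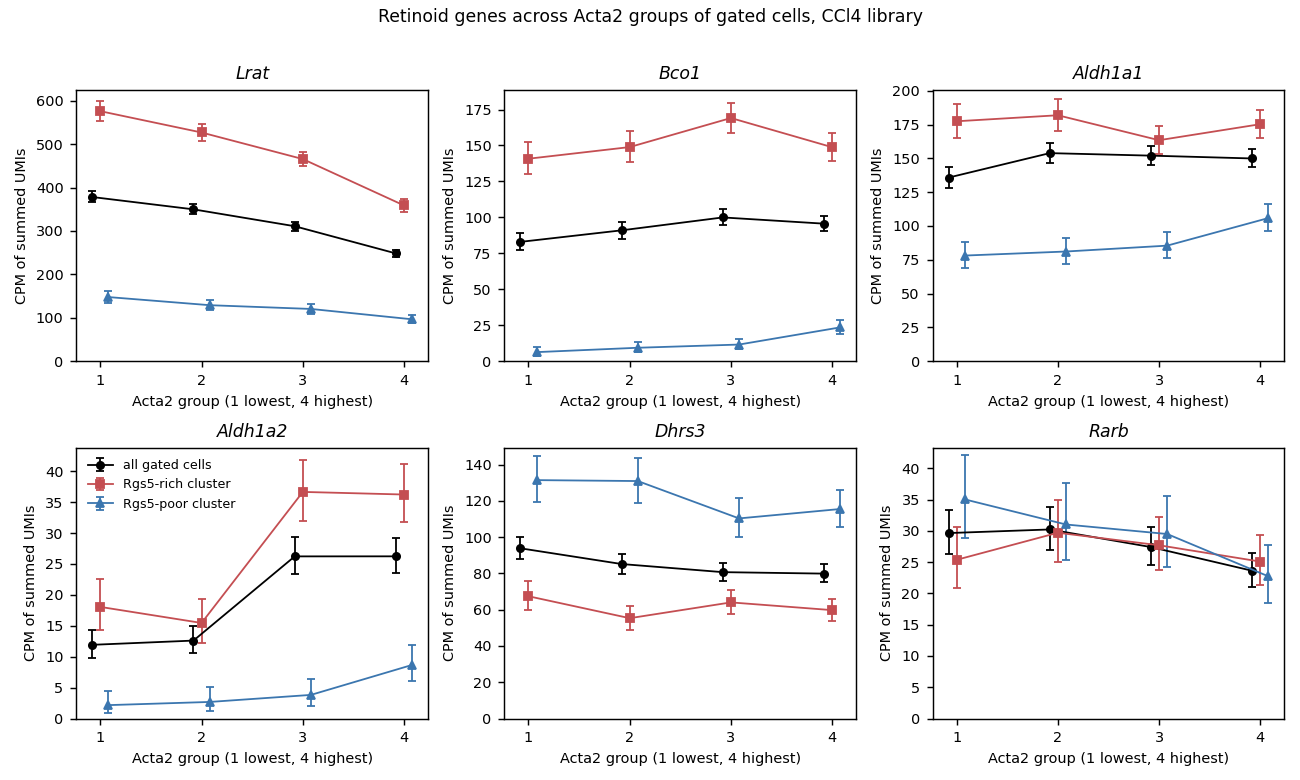
CPM of summed UMIs of 6 retinoid genes (vertical axes from 0) in the Acta2 groups of gated CCl4 cells, for all gated cells (black circles) and for those of the Rgs5-rich (red squares) and Rgs5-poor cluster (blue triangles), with 95% Poisson intervals. Lrat goes from 378 to 248 CPM over all gated cells and is lower at high Acta2 within both clusters too, and Aldh1a2 goes from 11.9 to 26.2 CPM.

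Marker lists were also read across the Acta2 groups, between which 26.2% of all genes were lower and 14.7% higher. Of 12 other stellate markers, 11 were lower and Des was higher in the highest group, and their summed level went from 4004 to 3362 CPM. The most abundant were Cygb (867 to 775 CPM), Ecm1 (759 to 638 CPM) and Hgf (518 to 373 CPM). Acta2, which formed the groups, was left out of the myofibroblast markers. Of the 7 others, 6 were higher and Spp1 was lower (summed 12477 to 17642 CPM), with Tagln at 422 and 3630 CPM. Of 5 smooth muscle markers, 4 were higher (58.7 and 292 CPM in sum), and the share of cells with a Myh11 UMI went from 20.03% to 57.7%. Of 13 endothelial markers, 12 were lower, with a summed level of 811 and 478 CPM. Of 6 portal fibroblast markers, 3 were lower (586 to 538 CPM in sum), as were 3 of 14 hepatocyte markers (117 to 94.4 CPM), while mesothelial markers stood at 171 and 158 CPM and macrophage and monocyte markers at 87.8 and 73.6 CPM. None of these lists had a gene at 0 in all gated cells. Under 10 CPM in gated cells were 11 hepatocyte, 8 macrophage and monocyte and 2 endothelial markers. So were 3 each of the smooth muscle, portal fibroblast and mesothelial markers. The Lrat log2 ratio was -0.50 [-0.59, -0.41] in cells without a Myh11 UMI and -0.61 [-0.69, -0.54] in cells without a Pecam1 or Cdh5 UMI. The Aldh1a2 log2 ratio was 1.004 [0.61, 1.41] and 1.07 [0.75, 1.40] in the same cells.

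For Lrat, Bco1, Aldh1a1, Aldh1a2 and Dhrs3 the mesenchymal-like clusters differed by more than the Acta2 groups did, at nearly equal Acta2 levels (748 CPM in the Rgs5-rich and 750.2 CPM in the Rgs5-poor cluster). The retinoid genes, the gate genes and Acta2 had been kept out of the genes used for clustering, and Rgs5 named the clusters after they were seen, so the values are a description. In the CCl4 library, Lrat stood at 470.1 CPM in the Rgs5-rich cluster (1506 cells) and at 106 CPM in the Rgs5-poor cluster (1385 cells), a ratio of 4.43 [4.22, 4.64]. Bco1 stood at 153 and 10.6 CPM (ratio 14.4 [12.5, 16.7]), Aldh1a2 at 28.0 and 4.04 CPM (6.95 [5.48, 8.91]) and Aldh1a1 at 174 and 86.9 CPM (2.003 [1.89, 2.12]). Dhrs3 went the other way, at 61.6 and 125 CPM (0.492 [0.460, 0.526]), and Rarb stood at 26.9 and 28.7 CPM (0.938 [0.834, 1.06]). Of 7 genes counted, 4 were at least 2-fold higher and 1 was at least 2-fold lower, where over all 13095 genes 4.17% were higher and 9.1% lower by that measure.

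**Figure D3:**
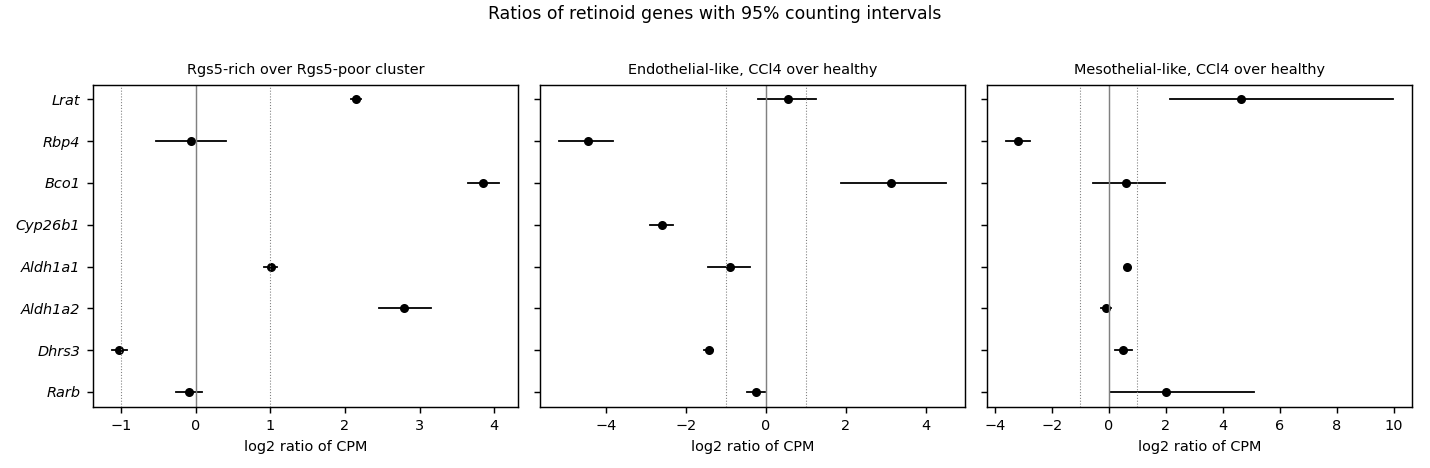
Log2 ratios of CPM for the retinoid genes with at least 20 UMIs in a comparison, with 95% counting intervals, for the Rgs5-rich over the Rgs5-poor mesenchymal-like cluster of the CCl4 library and for CCl4 over healthy endothelial-like and mesothelial-like cells. Solid lines mark equal levels and dotted lines a 2-fold ratio, and the horizontal axes differ between panels. Bco1 has the highest ratio between the clusters (3.85) and Rbp4 the lowest ratios of CCl4 over healthy (-4.45 and -3.18).

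The same groups were then read within each cluster, with 343 to 424 cells a group in the Rgs5-rich and 235 to 260 in the Rgs5-poor cluster. In the Rgs5-rich cluster Lrat stood at 576, 527, 466 and 359 CPM (ratio 0.623 [0.588, 0.659]), Bco1 at 141, 149, 169 and 149 CPM (1.06 [0.954, 1.17]) and Aldh1a2 at 18.05, 15.5, 36.6 and 36.2 CPM (2.01 [1.55, 2.62]). In the Rgs5-poor cluster Lrat stood at 148, 129, 120.1 and 96.3 CPM, a ratio of 0.653 [0.571, 0.746]. Bco1 stood there at 6.20, 9.24, 11.5 and 23.4 CPM, and Aldh1a2 at 2.17, 2.68, 3.82 and 8.67 CPM (ratio 3.995 [1.76, 10.6]). In both clusters Lrat was lower and Aldh1a2 higher at high Acta2, whereas the interval of Bco1 included 1 in the Rgs5-rich cluster and its ratio was 3.78 [2.32, 6.45] in the Rgs5-poor cluster, where few UMIs were counted (20 in the lowest and 100 in the highest group). Aldh1a1 was level in the Rgs5-rich (178 and 175 CPM) and higher in the Rgs5-poor cluster (78.1 and 106 CPM), and Rarb was level in the Rgs5-rich (25.4 and 25.1 CPM) and lower in the Rgs5-poor cluster (35.0 and 22.7 CPM). The difference between the clusters in these ratios was not tested.

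Only 7 healthy cells fell in the Rgs5-rich cluster. They held 49 Lrat UMIs in 61129 UMIs (801.6 CPM, 5 of 7 cells with a UMI), against 470.1 CPM in the CCl4 cells of that cluster, a ratio of CCl4 over healthy of 0.586 [0.443, 0.793]. Bco1 (6 UMIs), Aldh1a1 (9 UMIs) and Rarb (3 UMIs) had intervals that include 1, no Aldh1a2 UMI was counted in these cells, and Dhrs3 (12 UMIs, 196 CPM) was at 0.314 [0.179, 0.609]. These values rest on 7 cells of 1 library.

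The comparison of CCl4 with healthy in endothelial-like cells asked how the vessel lining, where Cyp26b1, Dhrs3 and Rarb were highest, differed between the libraries. Cyp26b1 stood at 157 CPM in 3543 healthy and 25.9 CPM in 623 CCl4 cells, a ratio of 0.165 [0.135, 0.2002] (log2 -2.60), and Dhrs3 at 435 and 161 CPM, a ratio of 0.371 [0.342, 0.401] (log2 -1.43). Rarb stood at 53.4 and 45.3 CPM (ratio 0.848 [0.721, 0.992]), and its log2 ratio of -0.24 was -0.02 with TMM scaling. Rbp4 stood at 107 and 4.89 CPM and Aldh1a1 at 16.5 and 8.81 CPM, beside 626 and 33.8 CPM of Alb. Lrat (74 and 22 UMIs) had an interval that includes 1, and Bco1 (9 and 16 UMIs) was higher at 3.91 CPM against 0.446 CPM, close to the 4.38 CPM of macrophage and monocyte-like cells of that library. In all, 3 of 7 retinoid genes were at least 2-fold lower and 1 was at least 2-fold higher, where over all 12282 genes 16.5% were lower and 5.41% higher. The median log2 ratio of all genes was -0.32, so changes are to be read relative to that shift.

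Different clusters held this class in the libraries. Healthy cells lay in clusters 0 (1674 cells), 5 (927), 6 (608, median 1450 UMIs) and 7 (300, led by Ccl21a, Vwf and Gja5), with 34 in cluster 1, and 615 of the 623 CCl4 cells lay in cluster 1, led by Esm1, Nts and Erg. Cyp26b1 stood at 176, 162, 129 and 73.7 CPM in clusters 0, 5, 6 and 7, and at 26.3 CPM in cluster 1. Dhrs3 stood at 471, 485, 334 and 213 CPM, and at 162 CPM in cluster 1. Both genes were thus lowest in the CCl4 cells of cluster 1. Cluster 7, which had the lowest levels of clusters 0, 5, 6 and 7, gave log2 ratios of -1.51 for Cyp26b1 and -0.40 for Dhrs3, the latter under 2-fold. Whether cluster 7 is the same type of endothelial cell as cluster 1 was not tested. Rarb stood at 53.3, 56.9, 50.9 and 46.3 CPM against 45.2 CPM, with overlapping intervals in clusters 6, 7 and 1. These levels of cluster 1 are those of its CCl4 cells. Its 34 healthy cells (56864 UMIs in all, a median of 1274.5) held 9 UMIs of Cyp26b1 (158 CPM [72.4, 300.5]), 20 of Dhrs3 (352 CPM [215, 543]) and 8 of Rarb (141 CPM [60.7, 277]), each above the interval of the CCl4 cells of the same cluster.

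**Figure D4:**
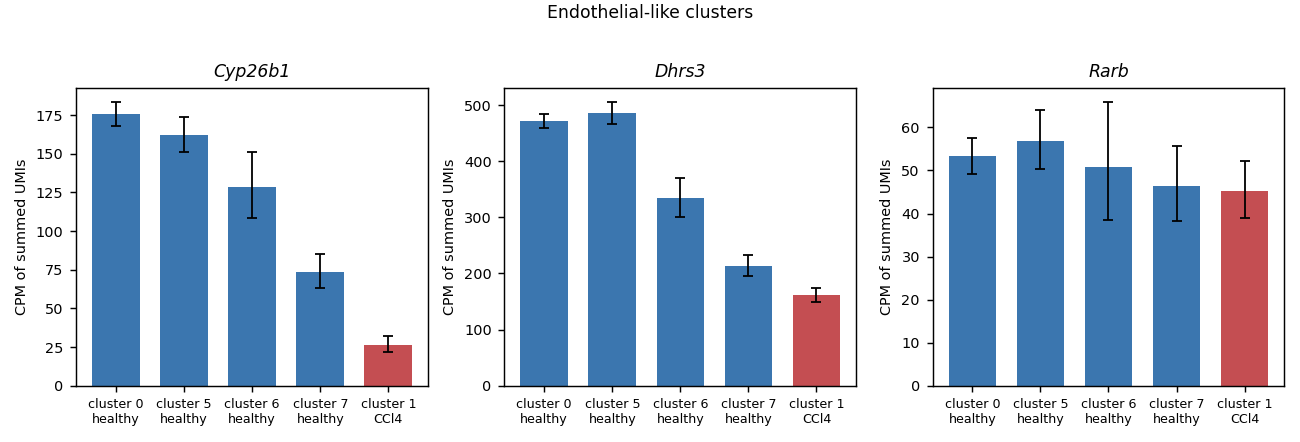
CPM of summed UMIs of Cyp26b1, Dhrs3 and Rarb in the 4 healthy endothelial-like clusters (blue) and the CCl4 one (red), with 95% Poisson intervals. Cyp26b1 is at 26.3 CPM in the CCl4 cluster and between 73.7 and 176 CPM in the healthy clusters, while the bars of Rarb lie between 45.2 and 56.9 CPM.

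Mesothelial-like cells, the covering of the liver surface, held the high Aldh1a1 and Aldh1a2 levels in both libraries. Aldh1a1 stood at 469 CPM in 237 healthy and 732 CPM in 970 CCl4 cells, a ratio of 1.56 [1.49, 1.64], and Aldh1a2 at 84.9 and 79.4 CPM, a ratio of 0.934 [0.827, 1.06]. Dhrs3 stood at 29.9 and 42.1 CPM (1.41 [1.16, 1.73]), with an interval that includes 1 when doublets were kept (log2 ratio 0.20 [-0.06, 0.47]). Lrat (1 and 109 UMIs, 0.260 and 6.45 CPM; ratio 24.9 [4.37, 991]) and Rarb (2 and 35 UMIs, 0.519 and 2.07 CPM; ratio 3.99 [1.03, 34.2]) were higher at levels far under those of mesenchymal-like cells. In T and NK cell-like and in macrophage and monocyte-like cells of the CCl4 library, Lrat stood at 28.1 and 23.6 CPM and Rarb at 2.01 and 0.875 CPM (1 UMI each), so the mesothelial-like Lrat level was under that of these immune classes. Rbp4 was lower (39.7 and 4.38 CPM) beside Alb at 220.5 and 12.7 CPM. Of 7 genes, 1 was at least 2-fold lower and 2 were at least 2-fold higher, where over all 12542 genes 12.2% were lower and 11.6% higher. Of the healthy cells 232 lay in cluster 8 and all 970 CCl4 cells in cluster 17, so cluster, library and injury cannot be told apart.

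Of 55 other genes of the retinoid pathway (carriers, ester hydrolases, retinol and retinal dehydrogenases, receptors and responsive genes), 32 were counted across the Acta2 groups. In the highest group 14 were lower, none was higher and 18 had intervals that include 1, with a median log2 ratio of -0.29, beside 26.2% lower, 14.7% higher and a median of -0.10 over all genes. At least 2-fold lower, as were 2.76% of all genes, were 3 of them: Cd36, a fatty acid uptake receptor (22.1 and 4.60 CPM), Rdh10, which oxidises retinol to retinal (25.3 and 12.4 CPM), and the receptor Rxrg (2.30 and 1.11 CPM, from 21 and 14 UMIs). Cd36 stood at 847 CPM in endothelial-like cells of the CCl4 library, whose markers were lower in the same group. Other lower genes were the receptors Rxra (73.1 and 49.7 CPM) and Rarg (33.2 and 25.4 CPM), and Lpl (1252 and 982 CPM), the lipoprotein lipase. Between the mesenchymal-like clusters 34 were counted, with 12 higher and 10 lower in the Rgs5-rich one, where 20.4% of all genes were higher and 36.1% lower. Lpl was there at 819 and 1810.2 CPM. In endothelial-like cells 31 of 40 were lower and 3 higher in the CCl4 library, 13 and 3 by at least 2-fold. Over all genes 45.3% were lower and 17.4% higher, 16.5% and 5.41% by at least 2-fold, and the median log2 ratio was -0.68 over the 40 genes and -0.32 over all. Those lower included the hepatocyte product Ttr (162 and 14.4 CPM), and those higher were Cd36 (391 and 847 CPM), Lpl (0.793 and 24.7 CPM) and Lrp1 (2.18 and 19.1 CPM). In the mesenchymal-like clusters of the CCl4 library Lrp1 stood at 590 (Rgs5-rich) and 548 CPM (Rgs5-poor), and Lpl at the levels given above. The part of free RNA in the endothelial-like levels of Lpl and Lrp1 was not tested. In mesothelial-like cells 14 of 36 were lower and 7 higher, against 30.9% and 26.7% of all genes, and 7 and 5 by at least 2-fold, against 12.2% and 11.6%. Retinoid-responsive genes went both ways there. Rarres2 stood at 4696 CPM in healthy and 783 CPM in CCl4 cells, and Rarres1 at 0.260 and 15.8 CPM (1 and 267 UMIs).

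Genes with the most similar pattern were found by Pearson r of log2(CPM + 10) over the 19 combinations of class and library, which share libraries and depth, so r is a description. For Lrat they were Adamtsl2 (0.981), Robo2 (0.978) and Bmp5 (0.974), and for Bco1 they were Gpat2 (0.968), D430019H16Rik (0.964) and Ms4a4d (0.963). For Rbp4 they were the plasma protein genes Gc (0.982), Fgg (0.979) and Ahsg (0.978). For Cyp26b1 they were Gm30648 (0.971), Pde1c (0.965) and Deup1 (0.962), for Rarb Slc9a3r2 (0.966), Gng11 (0.966) and Mtss2 (0.945), and for Dhrs3 Gpat4 (0.871), Cul4a (0.867) and Mcc (0.861). For Aldh1a1 they were Snap47 (0.923), Tcea3 (0.916) and L3hypdh (0.911), and for Aldh1a2 Rpp25 (0.974), Barx1 (0.948) and P3h4 (0.944). For Stra6, counted in few cells, they were Cd109 (0.975), Pitx1 (0.972) and Gap43 (0.971).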

How the data were processed

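Liver cells of 1 healthy and 1 CCl4 library were analysed. The authors deposited 1 matrix of raw UMI counts per library, not normalized, and per the file headers it was written by Cell Ranger 3.1.0 (healthy, 31053 genes) or 6.0.1 (CCl4, 32285 genes). The submitters' processing notes name fastp, featureCounts 1.6.2, GRCh38 and mm10 without roles; the gene identifiers are those of mouse. The deposited depth was 51122846 UMIs in 6297 healthy cells and 97611831 UMIs in 8460 CCl4 cells.

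Genes on both lists were used. Cells under 500 UMIs or 200 genes, or with over 30% mitochondrial UMIs, were left out (the latter limit removed 339 healthy and 504 CCl4 cells), and 277 and 487 cells with the highest Scrublet doublet scores were removed, at 0.8% per 1000 cells. Both libraries were clustered together (scanpy 1.11.5, python 3.11.15, 2000 variable genes, 10 principal components, 20 neighbours, Leiden resolution 1, seed 1), with the retinoid genes, the gate genes and Acta2 kept out. A cluster was named from at least 3 markers of a class, each at 2 times the median of the other clusters and in at least 10% of its cells. It stayed unnamed where genes of another class led it, where cells had under 1/3 of their library's median UMIs with no marker leading, or where another class had as many markers or at least 80% of its list (a rule set after the clusters were seen). Names can differ from those of the study.

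UMIs were summed per class and library and given as CPM with exact Poisson intervals, ratios with exact conditional binomial intervals and shares with exact binomial (Clopper-Pearson) intervals, all at 95%. Where no UMI was counted, 3 counts served as the limit. Ratios over all genes with at least 20 UMIs in both groups together gave the background, with called meaning an interval that leaves out 1 and, where stated, a ratio of at least 2. The ratio was run on simulated Poisson counts with known changes and no variation between cells, which checks the calculation only. edgeR 4.0.16 (R 4.3.3) gave TMM factors as an alternative only. The 9 genes, the gene lists and the alternatives were chosen with earlier results of these data known. All 9 genes were named, with the 3 most similar genes of each (genes with at least 50 UMIs), and of the other pathway genes those with at least 100 UMIs in gated cells and a ratio of 2 or more across the Acta2 groups. Further pathway genes were named after their values were seen. Promoter sequences came from a RefSeq table of build GRCm38.p6.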

Additional observations from a re-analysis of the deposited data

How the results depend on the processing

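With 1 library per condition and few healthy hepatocyte-like and mesenchymal-like cells, depth and cell number limit the rarer genes, and an interval covers counting error only, so a small shift can leave it. No value whose interval leaves out an equal level changed direction under the alternatives run, which were those planned and 6 chosen after seeing the data (gated cells of the mesenchymal-like clusters together, of the Rgs5-rich cluster and of the Rgs5-poor cluster with groups set anew, cells without Pecam1 or Cdh5 UMIs, all cells without an Acta2 UMI as the low group, and each healthy endothelial-like cluster alone). Of the main values, 102 stayed within the counting interval and 37 left it, and of the others 113 and 14 (the cause was not tested). Of log2 ratios near 0, those of Rbp4 across the Acta2 groups (-0.95 to 0.24) and of Bco1 (-0.23 to 1.29) and Aldh1a2 (-0.21 to 0.07) in mesothelial-like cells took both signs. No paired analysis was possible because each group has 1 sample.

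The Lrat log2 ratio across the Acta2 groups (-0.61) ranged from -0.77 to -0.42 over 16 alternatives. It was -0.77 with mesenchymal-like clusters in place of the gate, -0.42 with every cell weighing the same, -0.51 with 3 Acta2 groups, -0.50 in cells without Myh11 UMIs, -0.50 with TMM scaling and -0.72 in the Rgs5-rich cluster. That of Bco1 (0.21) was 0.35 without Myh11 UMIs and 1.93 in the Rgs5-poor cluster, and that of Aldh1a2 (1.14) was 2.07 in the Rgs5-poor cluster. Of the other pathway genes, 12 of 31 were lower with a gate of 5 UMIs and 15 of 51 without the filter on low counts, and none was higher in either.

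Lrat in mesenchymal-like cells was 288 CPM with a mitochondrial limit of 10%, 290.3 with doublets kept, 294 with 30 principal components and 306 with cells weighing alike, and Bco1 there was 82.9 with the 10% limit and 82.8 with doublets kept. Rbp4 in hepatocyte-like cells was 5208 CPM with the 10% limit, 5193 with doublets kept, 5371 with 30 components, 5367.5 with each library clustered on its own and 5706 with cells weighing alike, and Aldh1a1 there was 1023 with the 10% limit, 1025 with a minimum of 1000 UMIs and 868 with every cell weighing the same. With each library clustered on its own, healthy endothelial-like cells had 163 CPM of Cyp26b1, 467 of Dhrs3 and 56.8 of Rarb. Aldh1a2 in healthy mesothelial-like cells was 73.1 CPM with every cell weighing the same.

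In endothelial-like cells the Cyp26b1 log2 ratio (-2.60) was -2.31 against healthy cluster 6 and -1.51 against cluster 7. That of Dhrs3 (-1.43) was -1.21 with TMM scaling, and -1.59, -1.05 and -0.40 against healthy clusters 5, 6 and 7. That of Rarb (-0.24) was -0.51 with every cell weighing the same. In mesothelial-like cells the Aldh1a1 log2 ratio (0.64) was 0.75 with TMM scaling, 0.49 with the 10% limit and 0.52 with doublets kept.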
